A study of Caenorhabditis elegans with 12 samples.

Results

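The difference between 2 genotypes of the nematode Caenorhabditis elegans in the polysome ratio of their genes was measured from all 12 libraries of the series. The libraries came from 6 liquid cultures, 3 of the genotype labelled glh1 and 3 of the genotype labelled wt. Polysomal and total RNA were taken from separate portions of each lysate, so that every culture gave 1 polysomal and 1 total library. For each culture the polysome ratio of a gene was taken as log2 of its CPM (counts scaled to the same total in each library) in the polysomal library over its CPM in the total library of the same number. The ratio difference is the mean of the 3 glh1 ratios minus that of the 3 wt ratios, as fitted by the model, and a positive value means a higher ratio in glh1. It was tested for 16526 of 46904 gene IDs, those that passed a filter on low counts.

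Polysomes are mRNAs carrying several ribosomes. They sediment faster than free mRNA in a sucrose gradient, so the share of a gene's mRNA in the polysome fraction is a common measure of how actively it is being translated. GLH-1 is a Vasa-family DEAD-box RNA helicase of P granules, the RNA and protein granules of C. elegans germ cells, where many maternal mRNAs are bound and held from translation by RNA-binding proteins. The comparison asks whether the loading of mRNAs on polysomes differs with the glh1 genotype beyond any difference in the amount of mRNA.

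Both genotypes were grown at 20 °C on OP50 bacteria in liquid medium as synchronized larvae for about 40 h, until most worms were young adults, and were lysed with cycloheximide, which holds ribosomes on mRNA. The polysome fraction was collected from gradients of 10 to 50% sucrose. The sources used here do not give the glh1 allele or the strain background, and whole worms were pooled by culture. The tissue label reads whole embryo. The early embryo markers tested (3 of 6) summed to 0.764 to 1.13 CPM in glh1 and 0.904 to 1.59 CPM in wt polysomal libraries. In contrast, 33 sperm markers summed to 1440 to 4961 CPM in the glh1 and 3994 to 5211 CPM in the wt polysomal libraries. The major sperm protein genes among these 33 were taken only from genes that passed the filter. Of 3 male markers, lov-1 and pkd-2 were too low to be tested. The 1 tested measured 0.511 to 1.02 CPM in the glh1 and 0.609 to 0.92 CPM in the wt polysomal libraries. Fewer cells of a type and less RNA per cell cannot be told apart in such samples. The libraries held 34520267 to 49672537 estimated counts, of which genes annotated as ribosomal RNA took between 3.07% and 45.7%.

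The transcript of glh-1 itself checks the labels, and it was more abundant in the cultures labelled glh1. It measured 880, 906 and 1495 CPM in polysomal RNA of glh1 cultures 1, 2 and 3, against 293, 388 and 384 CPM in polysomal RNA of wt cultures 1, 2 and 3. In total RNA it measured 532, 586 and 546 CPM in the glh1 cultures and 306, 424 and 305 CPM in the wt cultures. The 2 genotypes did not overlap in either fraction, and the labels are used here as they stand, for the libraries labelled glh1.

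The third glh1 culture stood apart from the others. Over the genes tested, its ratios had an interquartile range of 2.26 on the log2 scale, against 1.20 and 1.14 in glh1 cultures 1 and 2 and 1.26, 1.35 and 1.63 in wt cultures 1, 2 and 3. The polysomal library was the one that differed. Its log2 CPM values lay a root mean square of 0.813 from the median of the other 5 polysomal libraries. Each of those 5, measured in the same way, lay at 0.404 to 0.527. The total library of glh1 culture 3 lay at 0.283, within the range of 0.281 to 0.546 of the total libraries. The results below are therefore given with this culture and, where it matters, without it.

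**Figure D1:**
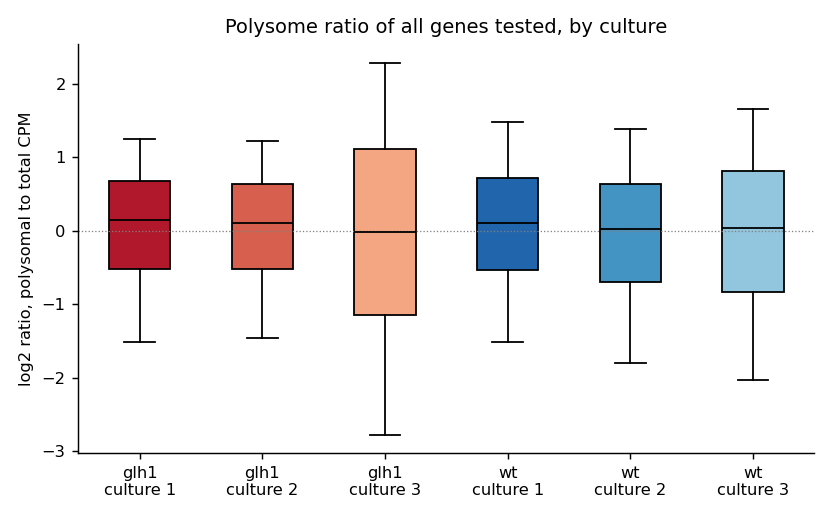
Log2 ratio of polysomal to total CPM of the 16526 genes tested, by culture. Boxes span the middle 50% of genes with the median as a line, and whiskers reach the 5th and 95th percentiles. The box of glh1 culture 3 is the widest, with an interquartile range of 2.26, while those of the other 5 cultures are 1.14 to 1.63.

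No gene passed the edgeR test for a difference in polysome ratio between the genotypes when all 6 cultures entered the fit. Of 16526 genes, 0 had an adjusted p under 0.05 (0%, edgeR's quasi-likelihood test, Benjamini-Hochberg adjustment), and the smallest adjusted p was 0.999. At an unadjusted p under 0.05 there were 538 genes, 3.26% of those tested. Of these, 342 (2.07%) had a higher and 196 (1.19%) a lower ratio in glh1. All 3 glh1 ratios lay above all 3 wt ratios in 1085 genes (6.57%) and below them in 717 (4.34%). DESeq2 called 0 genes higher and 2 lower, C15H11.1 and K09F6.3. Adding the culture number as a block brought 1016 genes under an unadjusted p of 0.05 and gave 1 call, hsp-16.1, a small heat shock gene with libraries at 0 counts and near-identical copies, for which no fold is given. Counts of 16366 genes with this design were simulated. Of 100 genes given a 4-fold difference in ratio 71 were recovered, and of 100 given a 2-fold difference 11. A 2-fold difference would thus mostly be missed. The changed genes had a mean of at least 1 CPM, and noise was drawn separately for each gene. A shift of a whole culture, as in glh1 culture 3, was not simulated, so the share of 4-fold differences found may be lower in these data. The values below for single genes are therefore measurements that did not pass the test, and each had an adjusted p of 0.999 by edgeR.

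The 2 genes that DESeq2 called were named after their values were seen. C15H11.1 (WBcel235, chromosome V, 14393804 to 14394463) had ratios of -0.13, -0.03 and -0.16 in the glh1 cultures, against 1.35, 0.98 and 1.23 in the wt cultures. The 3 glh1 cultures lay together near equal polysomal and total CPM, and all 3 wt cultures lay well above them. K09F6.3 (chromosome II, 2255161 to 2261168) had ratios of -1.86, -1.65 and -2.12 in the glh1 cultures and -0.53, -0.69 and -0.48 in the wt cultures. For both genes the spread within a genotype was small beside the difference, with SDs of 0.07 (glh1) and 0.19 (wt) for C15H11.1 and 0.23 (glh1) and 0.11 (wt) for K09F6.3 (n = 3 each). The ratio differences were -1.31 ± 0.25 and -1.32 ± 0.27 (SE).

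Among the 4 Vasa-family helicases, glh-1 had ratios that did not overlap between the genotypes and its 3 paralogs did overlap. The ratio of glh-1 (WBGene00001598, chromosome I, 6854478 to 6857536) was 0.73, 0.63 and 1.45 in the glh1 cultures, against -0.06, -0.13 and 0.33 in the wt cultures. Its mRNA was thus at a higher polysomal than total level in every glh1 culture, and closer to equal in the 3 wt cultures. The difference was 0.89 ± 0.33 (SE), with an unadjusted p of 0.0249 by edgeR, and without glh1 culture 3 it was 0.63 (adjusted p = 0.209). The close paralog glh-2 had ratios of -0.54, -0.38 and 0.58 in the glh1 cultures and -0.55, -0.40 and 0.07 in the wt cultures, a difference of 0.18 ± 0.33. The 2 genes are alike enough in sequence that some reads may have been assigned to either. The more distant glh-3 (-0.02 ± 0.24) and glh-4 (0.20 ± 0.27) had ratio differences smaller than their SE.

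Regulators of germline stem cells and of translation in the germline had ratio differences mostly above 0. These genes include RNA-binding proteins that repress or activate maternal mRNAs and the cytoplasmic poly(A) polymerases that lengthen their tails. Of 37 tested, 32 had a positive difference, with a median of 0.35 where all genes tested had a median of 0.02. None passed the test. At an unadjusted p under 0.05, 5 had a higher ratio (2.07% of all genes), gld-2, larp-1, tra-1, fog-2 and rnp-8. At that p 1, the Pumilio-repeat gene puf-12, had a lower ratio (1.19% of all genes). The glh1 ratios lay above all wt ratios in 8 of the 37 (21.6%, against 6.57% of all genes). By exon length, this share was 7.29% in protein-coding genes of 1501 to 2500 nt and 21.9% in those over 4000 nt. The median exon length of the list was 2118 nt. The median log2 difference in level between glh1 and wt was -0.48 in total RNA and -0.12 in polysomal RNA, so the lower abundance in total RNA was not seen to the same extent on polysomes.

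The poly(A) polymerase gene gld-2 (chromosome I, 6369748 to 6386194) is an example. In polysomal RNA it measured 21.9, 22.2 and 18.2 CPM in the glh1 cultures and 18.5 to 19.1 CPM in the wt cultures, which overlap. In total RNA it measured 39.3, 33.2 and 46.6 CPM in the glh1 cultures, below the 68.3, 71.6 and 81.4 CPM in the wt cultures. Its ratios were -0.84, -0.58 and -1.35 in the glh1 cultures and -1.84, -1.90 and -2.13 in the wt cultures, a difference of 1.04 ± 0.26 (SE; unadjusted p = 0.00352, edgeR). Every culture had less gld-2 on polysomes than in total RNA, the glh1 cultures less markedly so. The La-related RNA-binding protein gene larp-1 had ratios of -0.78, -0.60 and -0.93 in the glh1 cultures, against -1.65, -1.42 and -1.93 in the wt cultures. The sex determination gene tra-1, a Gli-family transcription factor, had 0.77, 1.13 and 0.59 in the glh1 cultures, against -0.04, 0.12 and -0.02 in the wt cultures. In both genes the genotypes were apart, by 0.90 ± 0.23 for larp-1 and 0.81 ± 0.22 for tra-1. For puf-12 the order was the other way, with -1.24, -1.23 and -1.04 in the glh1 cultures and -0.62, -0.60 and -0.48 in the wt cultures.

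Oocyte and P granule genes had a similar lean. Of 40 oocyte and maternal genes, 33 had a positive ratio difference, with a median of 0.28, and the glh1 ratios lay above all wt ratios in 10 (25%, against 6.57% of all genes). The TRIM-NHL protein gene lin-41 (chromosome I, 9334800 to 9342496), which holds oocytes in growth and represses maternal mRNAs, had the smallest p of the list. Its total RNA measured 55.3, 47.7 and 59.4 CPM in the glh1 cultures, less than the 116, 134 and 142 CPM in the wt cultures, while its polysomal RNA measured 47.2, 45.9 and 35.3 CPM in the glh1 cultures and 36.0, 53.9 and 58.6 CPM in the wt cultures. The total RNA levels were separate and the polysomal levels overlapped. Its ratios were -0.23, -0.05 and -0.75 in the glh1 cultures and -1.69, -1.31 and -1.27 in the wt cultures, a difference of 1.08 ± 0.26 (SE; unadjusted p = 0.00239, edgeR). The other member with an unadjusted p under 0.05 was ima-3, an importin alpha gene of the germline, with a difference of 0.55 ± 0.22.

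Of 23 P granule and germ granule genes, 19 had a positive difference, with a median of 0.25. The 3 with a higher ratio at an unadjusted p under 0.05 (2.07% of all genes) were cgh-1, edg-1 and deps-1. For cgh-1, a DEAD-box helicase of translational repression complexes, the ratios were 0.57, 0.36 and 0.48 in the glh1 cultures, against -0.51, -0.33 and 0.00 in the wt cultures. The glh1 cultures held cgh-1 at a higher level on polysomes than in total RNA, and no wt culture did. For deps-1, a P granule protein, they were -0.01, 0.00 and 0.18 in the glh1 cultures, against -0.23, -0.66 and -0.45 in the wt cultures. The 57 Argonaute and small RNA pathway genes had a median of 0.11 and the 45 meiosis and synaptonemal complex genes one of 0.16, with 1 member each under an unadjusted p of 0.05, the mutator gene mut-15 (0.64 ± 0.22) and rmh-1 (0.67 ± 0.28). The zygotic embryo genes (29 tested of 38, median 0.09) and the 6 vitellogenins (median -0.16) had 0 members under that p. The small RNA median was 0.21, the meiosis median 0.24 and the vitellogenin median -0.07 without glh1 culture 3.

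Sperm genes leaned the other way. The major sperm proteins form the cytoskeleton of the crawling sperm and signal to the oocyte, and 29 of 30 tested had a negative ratio difference, with a median of -0.59. None passed the test and 2 had a lower ratio at an unadjusted p under 0.05 (1.19% of all genes), msp-58 and msp-142. The median ratio of the list was 0.46, 0.44 and 2.18 in glh1 cultures 1, 2 and 3, against 1.42, 1.32 and 1.93 in wt cultures 1, 2 and 3. The list was thus lower than in wt in the first 2 glh1 cultures and higher than in any wt culture in the third. Of the single genes, msp-58 had ratios of -0.23, 1.23 and 1.17 in the glh1 cultures, against 2.46, 2.23 and 2.24 in the wt cultures, a difference of -1.60 ± 0.42 at levels of 1.03 to 30.2 CPM. For msp-142 they were -0.68, -0.57 and 1.22 in the glh1 cultures and 0.98, 0.95 and 1.51 in the wt cultures, so that the genotypes overlapped only through glh1 culture 3. Members of this family are near-identical in sequence, so reads may have been divided between them.

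The small sperm-enriched peptide families (nspd, ssp, ssq, smz and related genes) were like the major sperm proteins, with 27 of 28 differences negative, a median of -0.41 (-0.91 without glh1 culture 3) and list medians of 0.69, 0.59 and 2.19 in the glh1 cultures and 1.47, 1.25 and 1.85 in the wt cultures. Here too glh1 culture 3 was the highest of all 6. The spe and fer genes of spermatogenesis, which are longer, had a median of -0.11. Of 29 tested, 2 had a lower ratio at an unadjusted p under 0.05, against 1.19% of all genes. The kelch-like gene spe-26 had ratios of -1.24, -0.79 and -1.48 in the glh1 cultures, against -0.03, -0.06 and -0.34 in the wt cultures. The ratios of spe-11, a sperm-supplied factor of early embryogenesis, were -1.06, -0.41 and -1.59 in the glh1 cultures, against 0.67, 0.04 and -0.18 in the wt cultures. For both genes glh1 culture 3 was the lowest of the 6, unlike for the major sperm proteins.

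**Figure D2:**
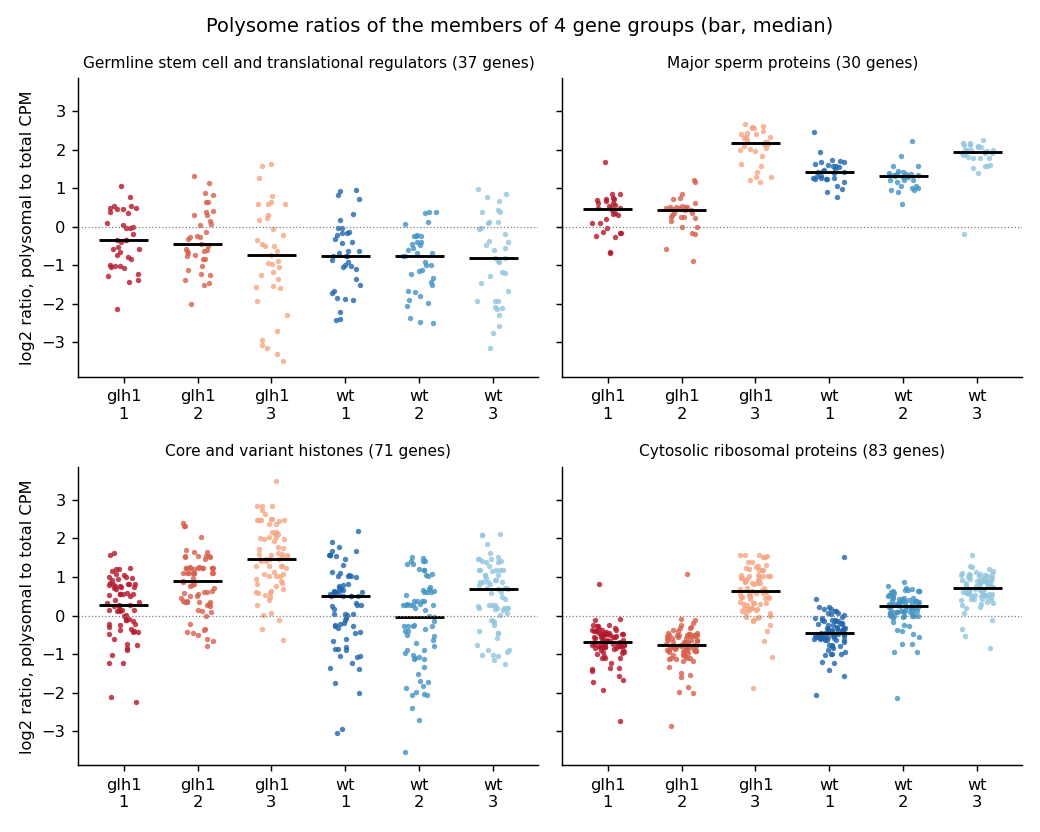
Log2 ratio of polysomal to total CPM of each tested member (points) of 4 gene groups, by culture, with the median as a bar. Germline regulators have medians of -0.35, -0.45 and -0.72 in the glh1 cultures and -0.75, -0.75 and -0.81 in the wt cultures, whereas for major sperm proteins and cytosolic ribosomal proteins glh1 cultures 1 and 2 lie below all wt cultures and glh1 culture 3 does not.

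Within the translation machinery, ratio differences were mostly negative for ribosomal proteins and centred on 0 for translation factors. Of 83 cytosolic ribosomal proteins, 81 had a negative difference, with a median of -0.46, and 0 passed the test. The median ratio of the list was -0.70, -0.76 and 0.62 in glh1 cultures 1, 2 and 3, against -0.46, 0.24 and 0.70 in wt cultures 1, 2 and 3. The list medians of the genotypes overlapped, since that of glh1 culture 3 lay above those of wt cultures 1 and 2. Without glh1 culture 3 the median difference was -0.90. The 3 members with a lower ratio at an unadjusted p under 0.05 (1.19% of all genes) were rpl-24.2, rpl-36.A and rpl-25.2. The first of them, rpl-24.2 (chromosome I, 9669415 to 9670098), had ratios of -1.68, -1.60 and -1.88 in the glh1 cultures, against -1.03, -0.55 and -0.53 in the wt cultures, a difference of -1.02 ± 0.23 (SE; unadjusted p = 0.00187, edgeR). Its ratio was as low in glh1 culture 3 as in the other glh1 cultures, unlike the median of the list. For mitochondrial ribosomal proteins the median was -0.19, with 57 of 70 negative and mrps-7 (-0.61 ± 0.23) the member with the smallest p. The 45 translation factors had a median of 0.00 and the 31 aminoacyl tRNA synthetases one of -0.02, and without glh1 culture 3 these were -0.16 and -0.14. The translational repressor gene ifet-1, which binds eIF4E, had ratios of 0.72, 0.47 and 1.07 in the glh1 cultures, against -0.07, 0.23 and 0.13 in the wt cultures. For the seryl-tRNA synthetase gene sars-1 they were -1.38, -1.25 and -1.63 in the glh1 cultures, against -0.88, -0.62 and -0.46 in the wt cultures.

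Histone genes had a median of 0.52, with 57 of 71 differences positive, and without glh1 culture 3 their median was 0.28. Over all genes tested, 2.07% had a higher ratio at an unadjusted p under 0.05. Of the histone genes 13 did, and 1, his-70, had a lower ratio at that p. These are not all separate measurements, since 19 of the 71 shared every library's count with another gene. The median ratios were 0.28, 0.88 and 1.47 in the glh1 cultures and 0.50, -0.03 and 0.68 in the wt cultures, which overlap. The gene his-64 had ratios of -0.42, 0.71 and 1.47 in the glh1 cultures, against -1.76, -1.72 and -0.89 in the wt cultures, at levels under 10 CPM. Core histone mRNAs mostly lack a poly(A) tail, and these libraries were selected for it. Ribosomal RNA remaining after that selection moved in the same direction, with median ratios of 5 annotated genes of -3.0, 0.75 and 0.68 in the glh1 cultures and -3.78, -3.06 and -1.98 in the wt cultures, and its part in the histone values was not tested. The 12 mitochondrially encoded mRNAs, which are translated inside mitochondria, had low median ratios in every culture, at -1.80, -1.86 and -2.30 in glh1 and -3.19, -2.03 and -1.93 in wt.

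Neuronal lists had medians close to 0, and the sign of those of the peptides depended on glh1 culture 3. FLP neuropeptide precursors had a median difference of 0.13 (24 of 30 positive), NLP and PDF precursors one of 0.11 (49 of 76 positive), insulin-like peptides 0.01 and the peptide processing genes 0.09. Leaving out glh1 culture 3 gave medians of -0.13 for FLP precursors, -0.13 for NLP and PDF precursors, -0.29 for insulin-like peptides and 0.23 for peptide processing genes. The level of the FLP precursors was higher by a median of 0.55 in total and 0.76 in polysomal RNA of glh1, on the log2 scale, both over all 6 cultures. The FLP gene flp-17 had ratios of 1.21, 0.98 and 1.57 in the glh1 cultures, against 0.71, 0.65 and 0.62 in the wt cultures, a difference of 0.59 ± 0.25. Among 40 pan-neuronal and synaptic genes (median 0.13), 2 had a higher ratio at an unadjusted p under 0.05, against 2.07% of all genes. They were the vesicular GABA transporter gene unc-47 (1.44 ± 0.59) and the G protein gene goa-1 (0.56 ± 0.23). Levels of unc-47 were 0.141 to 0.807 CPM, so its ratios rest on few reads.

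Lists of the body wall, gut and cuticle gave few members under an unadjusted p of 0.05. Muscle sarcomere genes had a median of -0.08, with the pharyngeal myosin gene myo-1 higher (0.66 ± 0.26) and the troponin I gene tni-3 lower (-0.84 ± 0.36). Collagens had a median of -0.08 over 171 genes and intestine markers one of -0.12, but without glh1 culture 3 they had -0.49 and -0.24. The molting factors and astacin proteases had a median of 0.26, with 58 of 77 positive and all 3 glh1 ratios above all wt ratios in 12 (15.6%, against 6.57% of all genes), among them the patched-related gene ptr-21. Its ratios were 1.63, 1.73 and 2.62 in the glh1 cultures and 1.25, 1.01 and 1.28 in the wt cultures. Hedgehog-related genes had a median of 0.06. Of these, grd-7 had ratios of 1.36, 1.81 and 1.65 in the glh1 cultures, against 0.28, -0.91 and -0.30 in the wt cultures. Levels of grd-7 were 0.0639 to 0.778 CPM, so its ratios rest on few reads.

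Several immune and environment-facing families had medians that depended on glh1 culture 3. The pals genes, a family of the response to intracellular pathogens, had a median of -0.38, with 31 of 34 negative. At an unadjusted p under 0.05, 3 had a lower ratio, pals-14, pals-11 and pals-6, against 1.19% of all genes. Levels of pals-11 were 0.017 to 0.93 CPM, so its ratios rest on few reads. The ratios of pals-14 were -2.03, -1.84 and -1.80 in the glh1 cultures, against -1.02, -0.87 and -1.36 in the wt cultures. The pals mRNAs were less abundant on polysomes than in total RNA in all 6 cultures, with list medians of -1.11, -1.0 and -1.76 in glh1 and -0.69, -0.80 and -1.29 in wt. The chemoreceptor genes had a median of 0.30, over only 92 tested of 1311, which are low in whole worms. C-type lectins (0.02), antimicrobial effectors (-0.02), nuclear hormone receptors (-0.14) and the cytochrome P450 and conjugation enzymes (-0.10) lay nearer to 0. Without glh1 culture 3 the medians were -0.41 for antimicrobial effectors, -0.19 for pals genes, 0.24 for chemoreceptors and 0.18 for nuclear hormone receptors, whose sign turned. The C-type lectins (-0.05) and the cytochrome P450 and conjugation enzymes (0.03) also changed sign then.

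F-box genes, substrate adaptors of ubiquitin ligases, had a median of 0.07 over 230 tested, with 9 under an unadjusted p of 0.05, all with a higher ratio in glh1, where 2.07% of all genes were under that p in this direction. The gene with the smallest p, fbxb-66, had ratios of -0.28, 0.40 and -0.11 in the glh1 cultures, against -1.34, -1.40 and -1.36 in the wt cultures. The wt cultures were alike and all 3 glh1 cultures lay above them, at 0.670 to 3.23 CPM. The remaining lists were the heat shock proteins and chaperones (median 0.00), the proteasome subunits (0.15), the respiratory chain genes (-0.14), the BATH, MATH and BTB genes (0.02), the transthyretin-related genes (-0.06) and the male-enriched genes (0.12). The F-box median without glh1 culture 3 was 0.21, that of the respiratory chain -0.48, that of the transthyretin-related genes -0.27 and that of the proteasome -0.12. In the respiratory chain list, the cytochrome c gene cyc-2.2 had a difference of -0.98 ± 0.31. The long noncoding and antisense RNAs had a median of 0.26 over 69 tested, and 0.07 without glh1 culture 3. These are not known to be translated, and the sources used here do not say whether reads were counted by strand, so reads of overlapping genes may be mixed.

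The genes with the smallest p in each direction, among those with a difference of at least 1 on the log2 scale, separate genotypes and a class name, cross these lists. On the higher side were frm-7, egl-19, linc-5, lin-41, his-64, gld-2, fbxb-66, che-3, his-45 and hgrs-1. The FERM-domain gene frm-7 (chromosome V, 12302484 to 12306974) had ratios of -0.26, 0.11 and -0.32 in the glh1 cultures, against -1.21, -1.37 and -1.82 in the wt cultures, a difference of 1.31 ± 0.27 (SE; unadjusted p = 0.000969, edgeR). For egl-19 (chromosome IV, 7405582 to 7418740), the L-type calcium channel of muscle, they were 0.04, 0.15 and 0.45 in the glh1 cultures, against -0.97, -0.96 and -0.99 in the wt cultures. The egl-19 ratios of wt were nearly the same in all 3 cultures, with an SD of 0.02, and those of glh1 had an SD of 0.21 (n = 3 each). The ciliary dynein heavy chain gene che-3 had -0.28, -0.61 and -0.22 in the glh1 cultures, against -1.27, -1.55 and -2.07 in the wt cultures. The ESCRT gene hgrs-1 differed by 1.11 ± 0.33.

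On the lower side were rpl-24.2, rnh-1.1, msp-58, spe-26, spe-11, rpl-36.A, nep-5, ttr-9, cutl-12 and ebp-3. The ribonuclease H gene rnh-1.1 had ratios of -2.29, -2.04 and -2.82 in the glh1 cultures, against -1.16, -1.06 and -1.23 in the wt cultures. It was depleted from polysomes in both genotypes, and more so in glh1. For rpl-36.A they were -1.37, -1.54 and -0.67 in the glh1 cultures, against -0.53, -0.01 and 0.30 in the wt cultures. The cuticlin-like gene cutl-12 differed by -1.36 ± 0.48, the neprilysin gene nep-5 by -1.15 ± 0.40 and the transthyretin-related gene ttr-9 by -1.09 ± 0.39. The microtubule end-binding gene ebp-3 differed by -1.60 ± 0.59, with wt ratios that ran from 0.71 to 3.26.

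**Figure D3:**
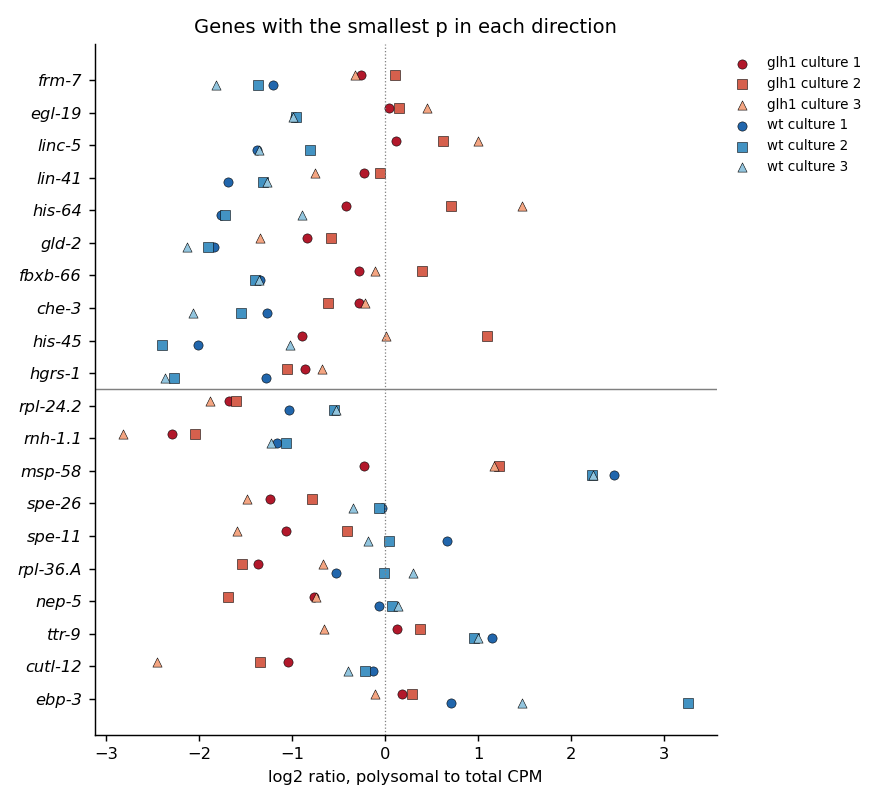
Log2 ratio of polysomal to total CPM in the 6 cultures for the 10 genes of each direction with the smallest p (higher in glh1 above the line, lower below it). Red symbols are glh1 cultures and blue symbols wt cultures. The genotypes do not overlap, as the choice of these genes requires, and egl-19 and fbxb-66 have the tightest wt ratios.

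Without glh1 culture 3 the test called genes. Of 16808 genes then tested, 130 (0.773%) had a higher and 84 (0.5%) a lower ratio in the 2 remaining glh1 cultures, 1.27% in all (edgeR, adjusted p under 0.05), and 2664 had an unadjusted p under 0.05. No other single culture, when left out, gave a call. The choice to show this set was made after its values were seen. The 130 genes called higher were long, with a median exon length of 3418 nt, and the 84 called lower were short, with a median of 384 nt. Over all genes the median was 1297 nt. The 130 had a median log2 level difference, over all 6 cultures, of 0.05 in polysomal and -0.62 in total RNA. For the 84 called lower these medians were -0.46 in polysomal and -0.02 in total RNA.

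In most of these genes the culture left out lay elsewhere. Among the 130 genes called higher, the ratio of glh1 culture 3 lay above all 3 wt ratios in 32, below all of them in 62 and within their range in 36. Among the 84 called lower it lay below all wt ratios in 15, above them in 53 and within their range in 16. Over all genes tested, glh1 culture 3 lay above the wt ratios in 36.9% and below them in 36.3%. For the genes called higher the median ratio was -0.09 in glh1 cultures 1 and 2 and -1.38 in glh1 culture 3, against -1.22 in wt. For the genes called lower it was 0.12 in glh1 cultures 1 and 2 and 1.90 in glh1 culture 3, against 1.29 in wt.

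Of the gene lists, the major sperm proteins held most calls without glh1 culture 3. Of 30, 25 were called lower, with a median difference of -1.14, as were 9 of 28 small sperm-enriched peptides and 7 of 83 cytosolic ribosomal proteins. Over all genes 0.5% were called lower, and of 1974 protein-coding genes of up to 600 nt 65 were. Of the sperm genes with the smallest p, msp-40 (chromosome II, 4825414 to 4825797) measured 56.5, 53.7 and 218 CPM in polysomal RNA of glh1 cultures 1, 2 and 3, against 117, 168 and 198 CPM in the wt cultures. In total RNA it measured 89.5, 99.6 and 89.2 CPM in the glh1 cultures and 69.1, 89.3 and 66.5 CPM in the wt cultures. Its polysomal level in glh1 culture 3 was thus the highest of the 6, and those of the other 2 glh1 cultures were the lowest. Without culture 3 the difference was -1.86 (adjusted p = 0.00393, edgeR), and with it -1.19 ± 0.55. The sperm gene ssq-1 had ratios of 0.63, 0.69 and 2.22 in the glh1 cultures, against 1.72, 1.72 and 1.87 in the wt cultures. The other leading genes on this side, msp-142, msp-56, msp-81, msp-10, msp-77 and msp-78, had differences of -1.77 to -1.24 without glh1 culture 3.

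Germline regulators were called higher in 8 of 37 without glh1 culture 3, against 0.773% of all genes, with a median of 0.51. These were gld-2 (1.25), gld-4 (1.45), cpb-1 (1.25), daz-1 (1.10), larp-1 (0.98), atx-2 (0.97), tra-1 (0.93) and puf-6 (0.85), most of which encode RNA-binding proteins or poly(A) polymerases. Of the oocyte genes 3 of 40 were called, lin-41 (1.28), mbk-2 (1.01) and mex-5 (0.94), and of the P granule genes the helicase gene znfx-1 (1.08). Calls on this side also rose with exon length. The median length was 2118 nt for germline regulators and 1794 nt for oocyte genes. Of protein-coding genes of 1501 to 2500 nt, 27 of 4074 were called higher, and of those over 4000 nt 49 of 753. The longer range holds gld-2 (6283 nt), larp-1 (4633 nt), tra-1 (4987 nt) and lin-41 (4810 nt). For gld-2, larp-1, tra-1 and lin-41, glh1 culture 3 also lay above all wt ratios. For cpb-1 it lay below them, at -3.15, where the other glh1 ratios were -1.0 and -0.83 and those of wt -2.21, -2.37 and -1.93.

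The genes called higher with the smallest p were daf-2, pup-2, max-2, smp-1, lin-41, gap-3, aakg-1 and gbf-1. The insulin receptor gene daf-2 had ratios of -1.24, -0.91 and -3.70 in the glh1 cultures, against -2.35, -2.84 and -2.59 in the wt cultures. Both other glh1 cultures lay above wt and the third below it, and the difference was 1.51 (adjusted p = 0.00618, edgeR) without and 0.71 ± 0.65 with glh1 culture 3. The poly(U) polymerase gene pup-2 had -0.52, -0.40 and -1.99 in the glh1 cultures and -1.93, -1.54 and -1.94 in the wt cultures. The AMP kinase subunit gene aakg-1 had 1.03, 1.15 and -1.97 in the glh1 cultures and 0.05, -0.09 and -0.15 in the wt cultures. Of these 8 genes, lin-41 and the p21-activated kinase gene max-2 kept the 3 glh1 ratios above all wt ratios.

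**Figure D4:**
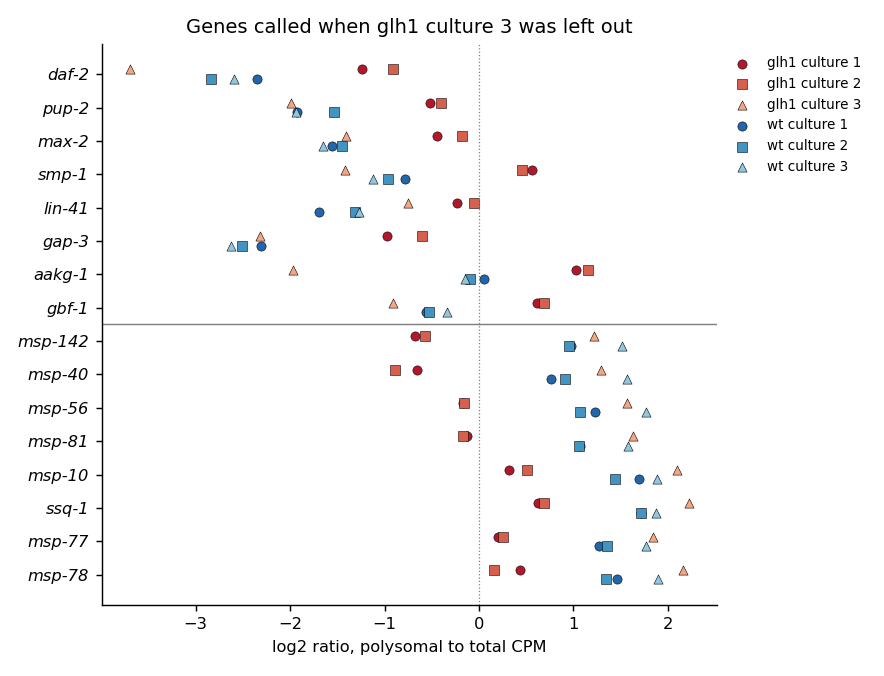
Log2 ratio of polysomal to total CPM in the 6 cultures for the 8 genes of each direction with the smallest p when glh1 culture 3 was left out (higher in glh1 above the line, lower below it). The light red triangles of glh1 culture 3 lie with or beyond the wt symbols for most of these genes, at -3.70 for daf-2 and 1.22 for msp-142.

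The ratio ran with the exon length of the gene in every culture, shorter mRNAs having higher ratios. Across 15761 protein-coding genes the Spearman correlation of ratio and length was -0.340, -0.252 and -0.452 in glh1 cultures 1, 2 and 3, and -0.441, -0.407 and -0.474 in wt cultures 1, 2 and 3. Genes share their libraries and are not independent replicates, and these values are descriptions. In genes of up to 600 nt the median ratio was 0.56, 0.42 and 1.52 in the glh1 cultures and 0.87, 0.68 and 1.06 in the wt cultures. In genes over 4000 nt it was -0.49, -0.25 and -0.80 in the glh1 cultures and -0.66, -0.67 and -0.84 in the wt cultures. The gap between these 2 length ranges was narrowest in glh1 cultures 1 and 2 and widest in glh1 culture 3.

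The ratio difference followed length as well, with a Spearman correlation of 0.158. Its median was -0.10 in the 1977 protein-coding genes of up to 600 nt and 0.23 in the 753 over 4000 nt. In the long genes the glh1 ratios lay above all wt ratios in 21.9%, and in the short genes in 2.83%. The lists did not all follow length. Over all 6 cultures, major sperm proteins (384 nt, median exon length) and cytosolic ribosomal proteins (534 nt) had medians below 0. Histones (384 nt), NLP and PDF precursors (538 nt), long noncoding RNAs (631 nt) and FLP precursors (644 nt) had medians above 0. Without glh1 culture 3 those of histones (0.28) and long noncoding RNAs (0.07) stayed above 0. Those of the NLP and PDF precursors (-0.13) and FLP precursors (-0.13) turned negative. With the length trend removed from each culture the test called 0 genes, and without glh1 culture 3 it called 23 higher and 20 lower in place of 130 and 84, of which 38 were among those 214. With the trend removed and all 6 cultures, the list medians were -0.54 for major sperm proteins, -0.44 for cytosolic ribosomal proteins, 0.28 for germline regulators, 0.23 for oocyte genes, 0.21 for P granule genes, 0.12 for molting factors and 0.53 for histones. Removing it without glh1 culture 3 gave -0.75 for major sperm proteins, -0.67 for cytosolic ribosomal proteins, 0.31 for germline regulators and 0.13 for P granule genes.

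**Figure D5:**
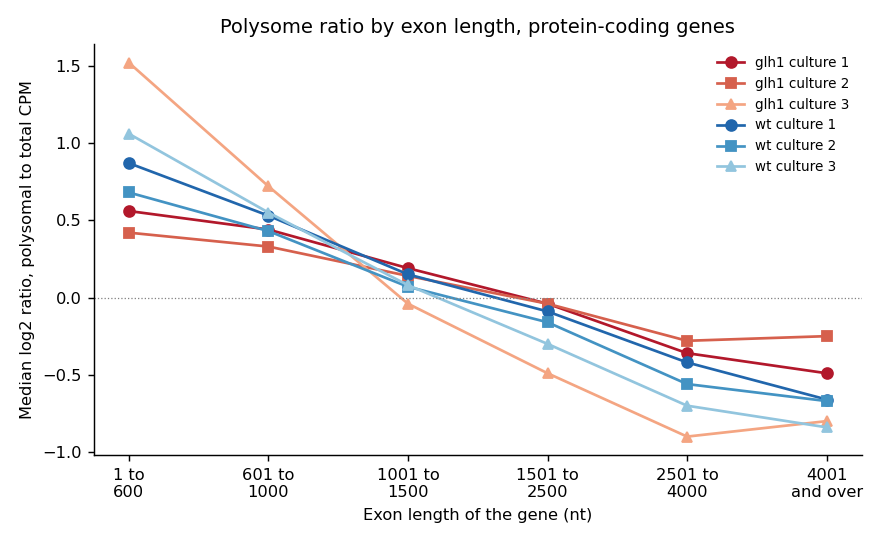
Median log2 ratio of polysomal to total CPM of protein-coding genes in 6 ranges of exon length, by culture. All 6 lines fall up to the range of 2501 to 4000 nt, and glh1 cultures 1 and 2 start lowest, at 0.56 and 0.42 in genes of up to 600 nt, while glh1 culture 3 starts highest, at 1.52.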

How the data were processed

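Polyadenylated RNA was sequenced for 75 cycles with a stranded kit, per the labels' protocols. The authors deposited a table of estimated counts for 46904 gene IDs and a table of rlog values, which are on a log2 scale. The submitters' processing notes name the genome WBcel235 with STAR 2.6.1b, RSEM 1.3.0, Trimmomatic 0.36, DESeq2 1.24.0 and R 3.6.1. The deposited counts carry the name kallisto, a tool not among these, so which tool made them is not settled here. Gene annotation was that of Ensembl release 115 (symbols, coordinates, exon lengths), which gave a symbol for 44017 IDs. No sequence was used, so GC content was not analysed here.

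The test was run on rounded estimated counts with R 4.3.3 and edgeR 4.0.16. The filter was filterByExpr on the 4 groups, scaling was TMM, and the quasi-likelihood model with robust dispersions had the 6 cultures as a block and a polysomal term per genotype, with 4 residual degrees of freedom. The block was used because both libraries of a number came from 1 lysate, per the treatment protocol. The ratio deviations of same-numbered glh1 and wt cultures had correlations of 0.231, 0.123 and 0.405 across genes, and a block on the number was an alternative. Cultures of different numbers were not compared in this way, so these values do not show a tie between cultures of a number. P-values were adjusted over all genes tested, and genes under 0.05 were called. Ratios used TMM-scaled log2 CPM with a prior count of 2. Levels within a fraction came from a fit of the 4 groups without a block. Correlations with length are Spearman's.

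The 40 gene lists and the comparison were chosen with earlier results of these data known. The name patterns of 4 lists (histones, both ribosomal protein lists, chemoreceptors) were corrected after values were seen, which removed non-members and added members. Lists were not tested. The genes named are the glh family, up to 10 per direction with the smallest unadjusted p among those with a log2 difference of at least 1, a mean of 1 CPM or more in the highest group, separate genotypes and a class name, and up to 4 members of each list with an unadjusted p under 0.05. Genes called by DESeq2 1.42.0, by the number block or without glh1 culture 3, and list members counted with them, were named after their values were seen. Alternatives were other scaling, filters, blocks and tools (limma 3.58.1), a length offset and each culture left out. The test was checked on simulated data. Tables and figures were made in Python 3.11.15 with pandas 2.3.3 and matplotlib 3.10.9.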

Additional observations from a re-analysis of the deposited data

How the results depend on the processing

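Without glh1 culture 3 the counts of genes called were 130 higher and 84 lower, and over the settings that leave out 1 culture they ran from 0 to 320 higher and from 0 to 387 lower, the most with DESeq2. With limma on the ratios they were 100 and 66, and with the length trend removed 23 and 20. With wt culture 1 and glh1 culture 3 both left out they were 676 and 511. Without glh1 culture 3 and with no replicate block, 0 genes were called and 1237 had an unadjusted p under 0.05. With all 6 cultures, the fit with no replicate block called 0 genes (491 at an unadjusted p under 0.05), and the replicate block on the number called 1 higher and 0 lower. DESeq2 called 0 higher and 2 lower. In all, 16 of 23 alternatives called 0 genes. With array weights, limma called 0 genes and 4228 had an unadjusted p under 0.05. The weights were 18.8 for glh1 culture 1 and 0.106 for glh1 culture 3. They did not converge, and this setting is not among the 23 alternatives.

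Of 2154 values of 95 genes under the alternatives, 2135 kept their direction. The difference of glh-2 was -0.13 without wt culture 1, -0.30 without that culture and glh1 culture 3, and -0.17 without glh1 culture 3, where it was -0.18 with no replicate block, -0.21 with DESeq2, -0.17 with limma and -0.44 with the length trend removed. That of glh-4 was -0.10, -0.15, -0.03, -0.03, -0.07, -0.03 and -0.33 in the same order. With 1 culture left out, glh-2 reached 0.32 and glh-4 reached 0.29 (both without glh1 culture 2). The other reversals were those of glh-3 (0.10 without glh1 culture 2, and -0.19 to 0.10 over single cultures left out), fipr-24 (0.01 on rlog values), aakg-1 (-0.42 without glh1 culture 1 and -0.39 without culture 2, and 1.15 without culture 3) and hsp-16.1 (-0.04 with both cultures out). The cause of these reversals was not tested.

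Of 40 lists, 11 kept the sign of their median in all 23 alternatives, the P granule, germline regulator, oocyte, histone, molting and chemoreceptor lists above 0 and both ribosomal protein lists and the 3 sperm lists below it. With upper-quartile scaling the median difference of all genes was -0.08 in place of 0.02, and the median ratios were 0.26, 0.23 and 0.18 in the glh1 cultures and 0.23, 0.36 and 0.33 in the wt cultures. Genes under 1 CPM, such as unc-47, are limited by their counts.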

Other observations

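Protein-coding genes of the X chromosome, which is largely silent in the germline, had median ratio differences like those of the autosomes, at 0.02 over 2213 genes, against 0.00 to 0.04 on chromosomes I to V. Their median ratios were above those of all genes in all 6 cultures, at 0.38, 0.36 and 0.06 in the glh1 cultures and 0.28, 0.25 and 0.20 in the wt cultures, where all genes had 0.14, 0.10 and -0.02 in glh1 and 0.11, 0.03 and 0.04 in wt. Pseudogenes had a median difference of -0.01 over 581 genes and lay lower on polysomes than in total RNA in every culture, with medians of -0.55, -0.52 and -1.11 in glh1 and -0.60, -0.75 and -0.76 in wt.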
